A study of Mus musculus with 6 samples.

Results

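The core clock loop genes are 9 genes whose proteins form the main transcription feedback loop of the circadian clock. They are the activator genes Arntl, which encodes BMAL1, Clock and Npas2, and the repressor genes Per1, Per2, Per3, Cry1, Cry2 and Ciart, which is also called Chrono. They were chosen by name, and every probe set that the platform annotation assigns to exactly 1 of these symbols was kept. This gave 21 probe sets among 45037 on the array, and 9 genes among 18193. Npas2 and Arntl have 2 probe sets each, Clock has 4, Per2 has 3, Per3 has 6, and the other 4 genes have 1 each.

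The arrays compare livers of C57BL/6 mice given AAV8, an adeno-associated virus vector that infects hepatocytes efficiently. In the AAV8-Nfkbiz group the vector expressed Nfkbiz, the gene of the nuclear IκB protein IκBζ, and in the AAV8-luciferase group it expressed luciferase as the control, with 3 arrays in each group. All 6 samples share the strain, the intravenous vector injection and, from 4 weeks after it, 4 weeks on the high-fat diet CDAHFD, which lacks choline, contains defined amino acids and models nonalcoholic fatty liver disease. No sample without a vector or on another diet was analysed here. The promoter of the vector, the age and sex of the mice, the hour of sampling and the feeding state are not given in the labels, so a difference between the groups in sampling hour or feeding and a difference caused by the vector cannot be told apart. The labels call the arrays separate samples and say no more, so the p-values cover the spread among these samples only, which may be technical in part.

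In mammals the BMAL1 protein pairs with CLOCK, or with its relative NPAS2, and the pair activates genes through E-box elements. PER and CRY proteins accumulate, enter the nucleus and repress the pair, and CIART also binds BMAL1 and represses it. In liver the transcripts of this loop rise and fall daily, those of Arntl nearly opposite in phase to those of the Period genes, and hepatocyte clocks follow feeding time and glucocorticoid hormone as well as signals from the brain. Cry1 also responds to ROR and REV-ERB factors, and its transcript peaks later in the cycle than those of Per1 and Per2.

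Sequences around the annotated start sites of 8 of the 9 genes were matched by symbol in the RefSeq promoter table of build GRCm38.p6, as 12 windows that reach from 250 bases before to 50 bases after a start site. Both strands were searched for the E-box CACGTG, the related element CACGTT, the D-boxes TTATGTAA and TTACGTAA bound by DBP-family factors and NFIL3, the ROR element cores TAGGTCA and TGGGTCA, and the cAMP response element TGACGTCA. The searched motifs did not overlap each other in these windows. The Ciart window held 3 copies of CACGTG, with first bases 116, 58 and 44 bases before the start site. Among all 32851 RefSeq windows, 7.15% held at least 1 copy and 29, or 0.0883%, held 3 or more. The 250 bases before the start site are shown for Ciart, Per1, Cry1 and Per3. The Ciart window holds the most E-boxes of the windows searched, and Per1 was the 1 gene that passed the test. The Cry1 window holds the E-box and the related element, and the Per3 window holds D-boxes. Whether the motifs bear on the array readings was not tested. Capitals mark the motifs found.
Ciart (chr3:95882229-95882478, minus strand): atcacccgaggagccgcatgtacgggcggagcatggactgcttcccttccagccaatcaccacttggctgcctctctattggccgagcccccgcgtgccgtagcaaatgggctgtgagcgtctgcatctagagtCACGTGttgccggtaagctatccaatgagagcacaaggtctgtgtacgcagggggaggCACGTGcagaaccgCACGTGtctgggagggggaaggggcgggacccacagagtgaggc
Per1 (chr11:69098699-69098948, plus strand): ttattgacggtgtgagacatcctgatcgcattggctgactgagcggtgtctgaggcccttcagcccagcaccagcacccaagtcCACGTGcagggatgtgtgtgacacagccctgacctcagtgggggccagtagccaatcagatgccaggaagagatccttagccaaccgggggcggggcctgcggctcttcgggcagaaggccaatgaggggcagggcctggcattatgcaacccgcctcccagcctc
Cry1 (chr10:85185055-85185304, minus strand): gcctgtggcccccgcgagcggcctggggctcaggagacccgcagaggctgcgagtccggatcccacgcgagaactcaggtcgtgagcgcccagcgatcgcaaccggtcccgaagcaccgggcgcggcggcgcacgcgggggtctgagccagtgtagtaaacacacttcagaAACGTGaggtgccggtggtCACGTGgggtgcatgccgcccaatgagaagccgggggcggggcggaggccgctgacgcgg
Per3 (chr4:151044666-151044915, minus strand): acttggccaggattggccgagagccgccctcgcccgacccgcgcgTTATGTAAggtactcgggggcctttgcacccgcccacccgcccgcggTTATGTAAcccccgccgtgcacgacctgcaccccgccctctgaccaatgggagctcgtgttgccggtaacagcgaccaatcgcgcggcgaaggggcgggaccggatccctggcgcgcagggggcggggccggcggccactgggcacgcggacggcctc

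One of the 2 windows of Per1 held CACGTG, 166 bases before the start site, and the other held none of the motifs. The Cry1 window held CACGTG at 60 bases and AACGTG, the reverse complement of CACGTT, at 79 bases before the start site. Cry2 held AACGTG at 166 bases before its start site, and 4.685% of all windows held CACGTT on either strand. The Per3 window held TTATGTAA at 2 places, with first bases 205 and 158 bases before the start site, a motif found in 0.938% of all windows. A single TAGGTCA, present in 2.606% of windows, lay 31 bases into the transcribed side of 1 of the 2 Arntl windows. None of these letters were found in the 3 windows of Clock or the single window of Npas2, which says nothing of sites elsewhere in these genes.

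**Figure D1:**
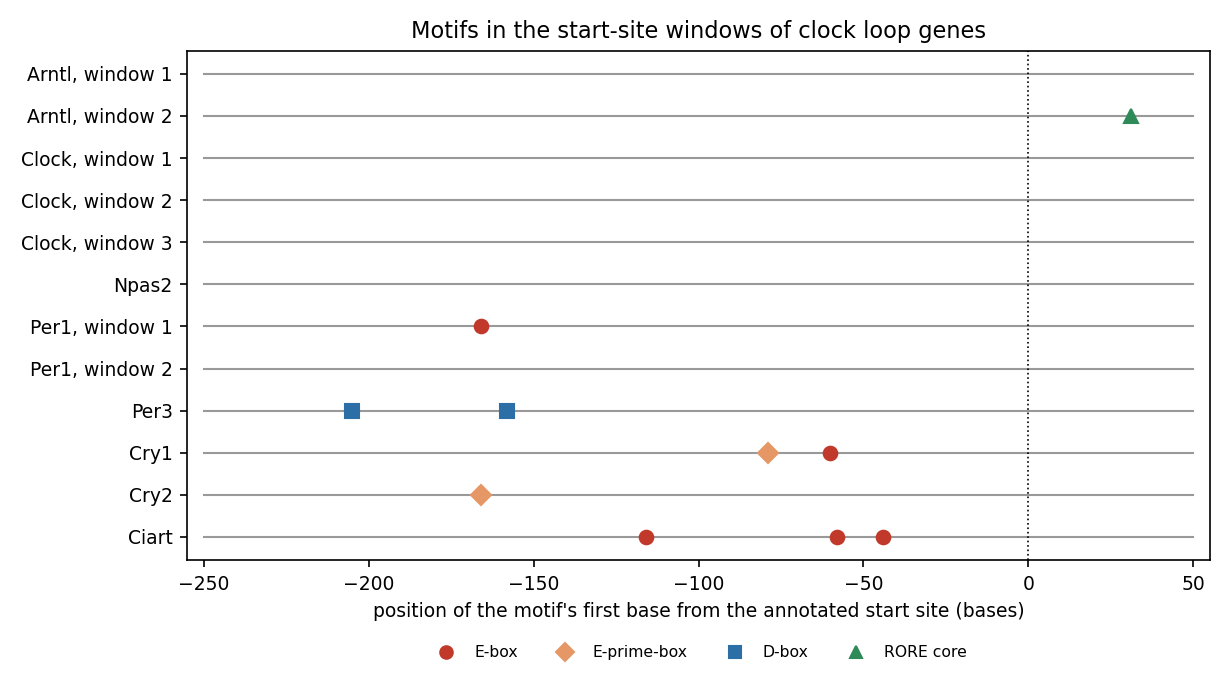
Positions of the motifs found in each start-site window of 8 clock loop genes, in bases from the annotated start site, with 1 line per window. Ciart has 3 E-boxes within 116 bases before its start site, Per1 and Cry1 have 1 each, and the windows of Clock and Npas2 have no symbol.

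Intensities are MAS5 signals as deposited, not logarithms. The authors' scaling gave every array nearly the same mean over the middle 96% of its values, between 495.4 and 496.5, and medians ran from 78.2 to 95.2. The vector gene was read at 4424, 4073 and 2006 on the AAV8-Nfkbiz arrays, against 221, 230 and 180 on the AAV8-luciferase arrays, by probe set 1448728_a_at. Its other probe sets overlapped between the groups, with log2 differences of 0.30 ± 0.19 for 1417483_at, which stands for the gene in the fit over genes, and -0.89 ± 0.54 for 1457404_at. The markers Alb, Apoa1, Ttr, Cyp2e1 and Cps1 of hepatocytes summed to between 202085 and 248143 on the AAV8-Nfkbiz arrays and between 203610 and 237641 on the AAV8-luciferase arrays. The third AAV8-luciferase array stood apart on the second principal component, which held 23.9% of the variance, at -76.2, while the others were at 8.47 to 22.8. The limma fit called 30 of 13312 genes and 19 of 27022 probe sets over the whole array.

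Of the 6 repressor genes, Per1, Per2, Per3, Cry2 and Ciart were read lower on every AAV8-Nfkbiz array than on any AAV8-luciferase array by their brightest probe sets, and Per1 alone of them passed the test. Among all genes tested, 18.0% had no overlap between the groups, in either direction. Clock was read higher without passing, and Arntl and the repressor gene Cry1 overlapped between the groups. Per1 fell by 1.36 ± 0.20 on the log2 scale (SE), with a limma adjusted p of 0.0329 over 13312 genes, and was the 1 member that passed that test of the 8 genes above the intensity filter, a mean intensity of 47.4, which leaves out the dimmest 40% of probe sets. Over all genes tested 0.225% passed. Ciart is above this filter only through its AAV8-luciferase arrays. In the fit over 27022 probe sets, which has to correct for more tests, 0 of the 18 member probe sets above the filter passed, where 0.0703% of all probe sets did, and Per1 had a limma adjusted p of 0.0604. At an unadjusted p below 0.05 that fit held 9 of the 18 member probe sets, that of Ciart among them, against 10.6% of all probe sets.

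Arntl, the gene of BMAL1, varied widely between arrays of the same group. Its brighter probe set, 1425099_a_at, read 292, 545 and 245 on the AAV8-Nfkbiz arrays, against 134, 394 and 209 on the AAV8-luciferase arrays. The second array of each group was the brightest of its group, and the ranges overlap. The log2 difference, AAV8-Nfkbiz minus AAV8-luciferase, was 0.61 ± 0.40 (SE, limma adjusted p = 0.578 over genes), and it ran from 0.24 without the first AAV8-luciferase array to 1.02 without the second. The other probe set, 1457740_at, read between 126 and 153 on the AAV8-Nfkbiz arrays and between 101 and 167 on the AAV8-luciferase arrays, a difference of 0.06 ± 0.28. Across the 6 arrays the 2 Arntl probe sets did not run together (Pearson r = -0.373), so they do not give 1 common reading of the gene.

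Clock, whose protein is the partner of BMAL1, was brighter in the AAV8-Nfkbiz livers on 3 of its 4 probe sets without passing the test. Probe set 1418659_at read 624, 802 and 847 on the AAV8-Nfkbiz arrays, against 573, 559 and 346 on the AAV8-luciferase arrays. The groups did not overlap, the gap being between the first array of each group, and the third AAV8-luciferase array was the lowest. The log2 difference was 0.65 ± 0.22 (limma adjusted p = 0.285 over genes), and without that array it was 0.41. Probe set 1418660_at separated the groups too, at 319, 313 and 379 on the AAV8-Nfkbiz arrays, against 268, 210 and 235 on the AAV8-luciferase arrays, a difference of 0.50 ± 0.19. Probe set 1435775_at overlapped (0.43 ± 0.20). The dim 1439314_at read between 30.5 and 72.8 on the AAV8-Nfkbiz arrays and between 39.7 and 72.2 on the AAV8-luciferase arrays, with a difference of -0.27 ± 0.52. The first 3 probe sets correlated at r = 0.747 to 0.957 with each other across the 6 arrays, and the dim one at -0.412 to 0.053 with them.

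Npas2, which encodes the relative of CLOCK, was below the intensity filter on both its probe sets and entered neither test. Probe set 1421036_at read 69.0, 28.3 and 35.2 on the AAV8-Nfkbiz arrays, against 9.55, 9.91 and 12.9 on the AAV8-luciferase arrays. All AAV8-Nfkbiz arrays were higher, with an exact two-sided permutation p of 0.1, the smallest that 3 arrays against 3 can give. In a fit of all 45037 probe sets without the filter the difference was 1.94 ± 0.73 with a limma adjusted p of 0.505. Probe set 1421037_at, at similar brightness, read 15.1, 14.2 and 38.6 on the AAV8-Nfkbiz arrays and 13.8, 29.7 and 28.6 on the AAV8-luciferase arrays, with overlapping ranges. No detection calls were used.

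All 3 Period genes, whose proteins form the repressor complex with the cryptochromes, were read lower in the AAV8-Nfkbiz livers on their brightest probe sets, with no overlap between groups. Per1, read by the single probe set 1449851_at, had intensities of 172, 255 and 182 on the AAV8-Nfkbiz arrays, against 462, 515 and 571 on the AAV8-luciferase arrays. Means were 203 ± 45.4 and 516 ± 54.5 (SD, n = 3 each), so the highest AAV8-Nfkbiz array lay well under the lowest AAV8-luciferase array, and the fitted difference was 2.57-fold. The call held without the second AAV8-Nfkbiz array, at a limma adjusted p over genes of 0.0317, and was lost without any 1 of the other 5 arrays. Leaving out the first AAV8-Nfkbiz array gave 0.119 and leaving out the third gave 0.0832. Leaving out the first AAV8-luciferase array gave 0.065, the second 0.122 and the third 0.0744. Quantile, loess and median scaling of the arrays moved it to 0.0599, 0.0597 and 0.067, and a variance prior without the intensity trend to 0.291, while the log2 difference stayed between -1.54 and -1.13 in all these settings and those with a pseudocount.

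Per2 was read at 488, 361 and 600 on the AAV8-Nfkbiz arrays by 1417602_at, against 984, 813 and 900 on the AAV8-luciferase arrays. The difference of -0.92 ± 0.19 did not pass (limma adjusted p = 0.122 over genes). Probe set 1457350_at showed the same separation at lower brightness, with 102, 75.2 and 114 on the AAV8-Nfkbiz arrays and 184, 180 and 137 on the AAV8-luciferase arrays (-0.79 ± 0.29). The third Per2 probe set, 1417603_at, overlapped, at 142, 154 and 184 on the AAV8-Nfkbiz arrays and 220, 186 and 159 on the AAV8-luciferase arrays (-0.23 ± 0.24). Its difference was smaller than that of the other two although it followed them across the arrays (r = 0.677 and 0.749).

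Per3, a Period gene that is dispensable for rhythms in most tissues, had 6 probe sets that did not all read alike. The brightest, 1421087_at, read 254, 194 and 284 on the AAV8-Nfkbiz arrays, against 517, 441 and 351 on the AAV8-luciferase arrays, a difference of -0.84 ± 0.22 (limma adjusted p = 0.183 over genes). Probe set 1441445_at also separated the groups, at 68.0, 100.0 and 83.3 on the AAV8-Nfkbiz arrays, against 159, 178 and 133 on the AAV8-luciferase arrays (-0.91 ± 0.29). In 1442243_at the first AAV8-Nfkbiz array, at 153, reached into the range of the AAV8-luciferase arrays, 141 to 171, and the other 2 AAV8-Nfkbiz arrays read 88.5 and 87.1 (-0.59 ± 0.30). Probe sets 1460662_at and 1458176_at showed differences of -0.08 ± 0.35 and 0.13 ± 0.61, smaller than their errors. The dimmest, 1421086_at, read at most 64.2 on any array and was below the filter. Which part of the transcript each of these probe sets reads was not analysed here.

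The 2 cryptochrome genes, whose proteins inhibit CLOCK-BMAL1 directly, did not run together. Cry2 was read at 244, 260 and 261 on the AAV8-Nfkbiz arrays by 1426383_at, against 377, 371 and 292 on the AAV8-luciferase arrays. The groups did not overlap, and the third AAV8-luciferase array came nearest to the AAV8-Nfkbiz values. The difference was -0.43 ± 0.18 (limma adjusted p = 0.383 over genes). Cry1 was read at 808, 746 and 426 by 1433733_a_at on the AAV8-Nfkbiz arrays, against 510, 521 and 564 on the AAV8-luciferase arrays. Its AAV8-Nfkbiz arrays lay on both sides of the closely grouped AAV8-luciferase arrays, with SDs of 205 and 28.6. The difference of 0.26 ± 0.23 (limma adjusted p = 0.698) became 0.55 without the third AAV8-Nfkbiz array and 0.08 without the first.

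Ciart, the repressor gene also called Chrono, was dim on the AAV8-Nfkbiz arrays and brighter on every AAV8-luciferase array. Its single probe set 1435188_at read 66.2, 14.4 and 57.2 on the AAV8-Nfkbiz arrays, against 228, 441 and 442 on the AAV8-luciferase arrays. Every AAV8-Nfkbiz array was below every AAV8-luciferase array, with means of 45.9 ± 27.7 and 370 ± 124 (SD, n = 3 each). The gene is above the filter only through its AAV8-luciferase arrays, since the mean of its AAV8-Nfkbiz arrays lies under that level, so the size of its difference is uncertain and its values are given as a description. The log2 difference was -3.22 ± 0.55 and did not pass over genes (limma adjusted p = 0.0587). The second AAV8-Nfkbiz array was the dimmest of the 6. Without it the difference was -2.52 and the limma adjusted p over genes 0.0495. With 16 or 64 added to every intensity before the logarithm, which damps dim readings, the difference was -2.71 or -1.97 and the limma adjusted p over genes 0.0287 or 0.0181. Of the alternatives that tested Ciart over genes, 5 made it pass and 12 did not. Its limma adjusted p over genes was 0.0969 without the filter and 0.329 without the intensity trend. Without the second AAV8-luciferase array it was 0.204. The passing p-values remain subject to the limit of the filter given above.

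**Figure D2:**
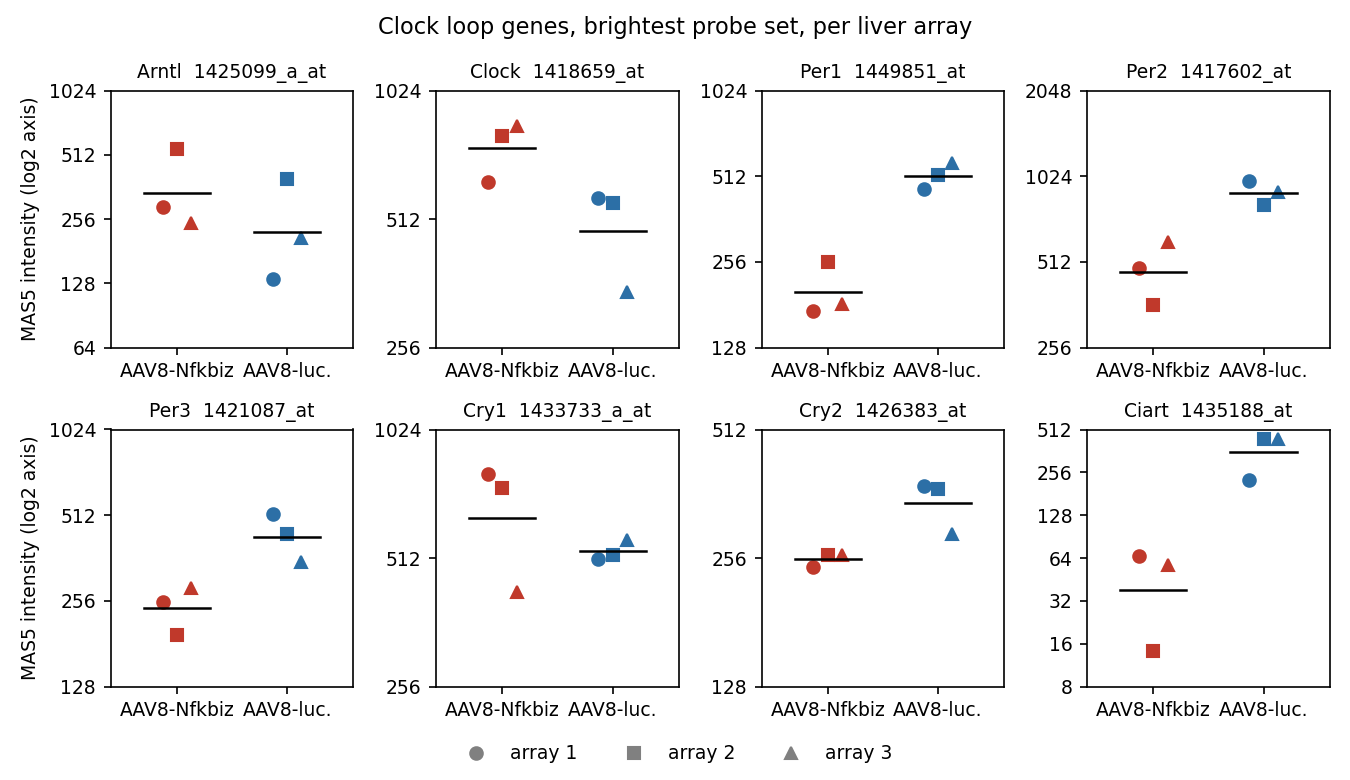
MAS5 intensity on a log2 axis of the brightest probe set of 8 clock loop genes, for each of 3 AAV8-Nfkbiz and 3 AAV8-luciferase arrays, with the mean of the log2 values as a line. Per1, Per2, Per3, Cry2 and Ciart are lower on every AAV8-Nfkbiz array, Clock is higher, and Arntl and Cry1 overlap.

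Over the 8 genes above the filter, the groups did not overlap for 6, where 18.0% of all genes tested had no overlap. These were the 3 Period genes, Cry2, Ciart and, higher in the AAV8-Nfkbiz livers, Clock. Over the 18 probe sets above the filter there was no overlap for 9, where 16.7% of all probe sets had none, with 7 lower, against 9.69%, and 2 higher, against 7.03%. The 9 and the 7 lower include the Ciart probe set, which is above the filter only through its AAV8-luciferase arrays. The probe set counts were not repeated without it. Over genes without Ciart there was no overlap for 5 of 7. The median log2 difference was -0.64 over the 8 genes and -0.43 without Ciart, against -0.02 over all genes tested, and that of the 18 probe sets was -0.25, against -0.02 over all probe sets. These shares describe genes chosen by name with earlier results of these data known, and no test was made of the set. Probe sets of 1 gene are not separate evidence, since they read the same RNA.

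**Figure D3:**
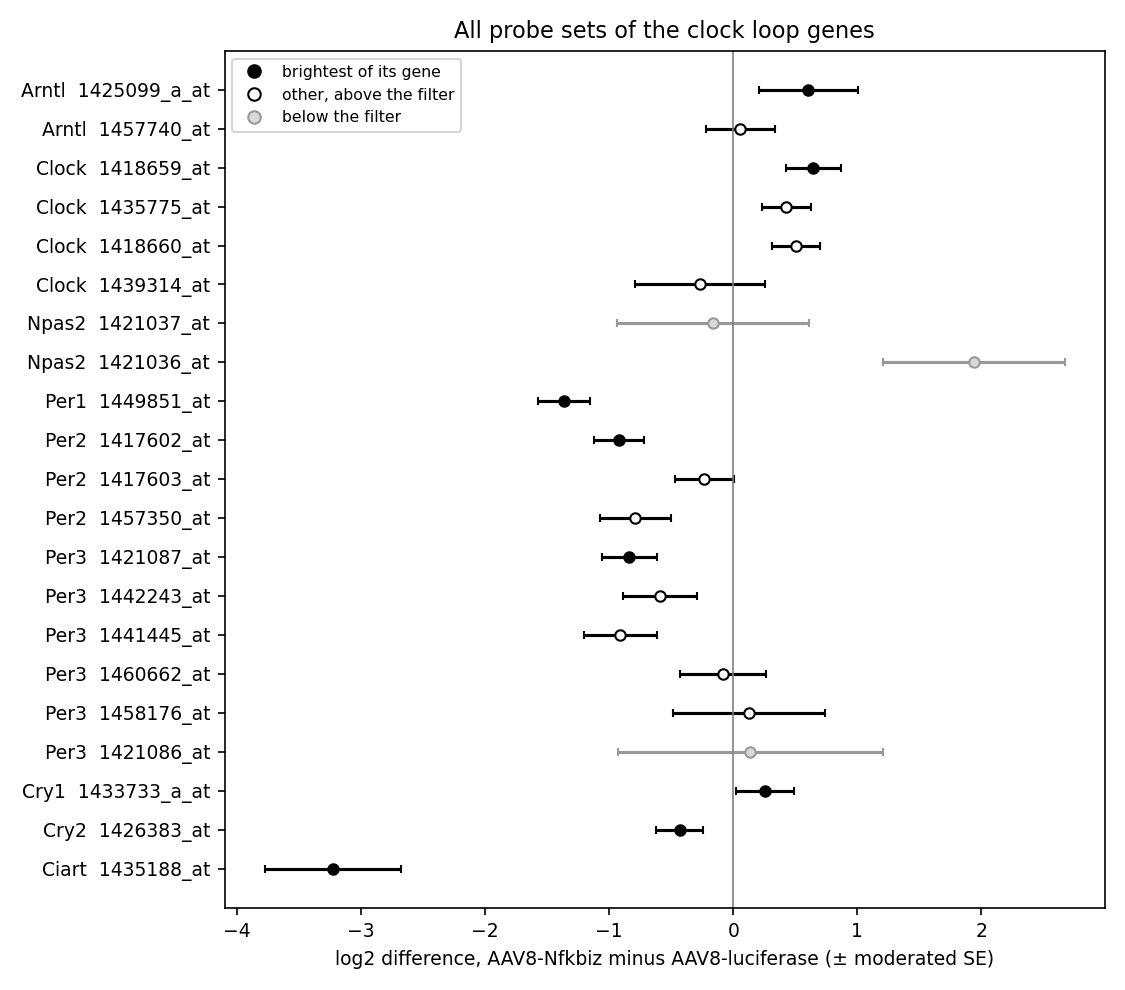
Log2 difference, AAV8-Nfkbiz minus AAV8-luciferase, of all 21 probe sets of the 9 clock loop genes, with limma's moderated standard error as bars and grey points for the 3 probe sets below the filter. The brightest probe sets of the Period genes, Cry2 and Ciart lie between -3.22 and -0.43, and those of Arntl, Clock and Cry1 between 0.26 and 0.65.

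Seen array by array, the average of the repressor genes was low on each AAV8-Nfkbiz array and high on each AAV8-luciferase array. Cry1 departed from this average, and Cry2 lay at its own mean on the third AAV8-luciferase array (-0.02). Relative to each gene's mean over the 6 arrays, the 6 repressor genes averaged -0.38, -0.79 and -0.46 on the AAV8-Nfkbiz arrays, against 0.49, 0.59 and 0.55 on the AAV8-luciferase arrays, on the log2 scale. The low value of the second AAV8-Nfkbiz array comes from Ciart, and without it the other 5 averaged -0.29, -0.35 and -0.35 on the AAV8-Nfkbiz arrays, against 0.39, 0.33 and 0.27 on the AAV8-luciferase arrays. The activators Arntl and Clock averaged 0.07, 0.70 and 0.17 on the AAV8-Nfkbiz arrays, against -0.55, 0.21 and -0.60 on the AAV8-luciferase arrays. On the second AAV8-luciferase array it was Arntl, at 0.52, that placed the average inside the AAV8-Nfkbiz range, while Clock, at -0.10, lay below that range. The second AAV8-Nfkbiz array had the lowest Per2, Per3 and Ciart and the highest Arntl of all 6 arrays, yet the highest Per1 of its group. Cry1 lay above its own mean on the first and second AAV8-Nfkbiz arrays, at 0.48 and 0.36, unlike the other repressors. On the third it lay below its mean, at -0.45, as they did.

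**Figure D4:**
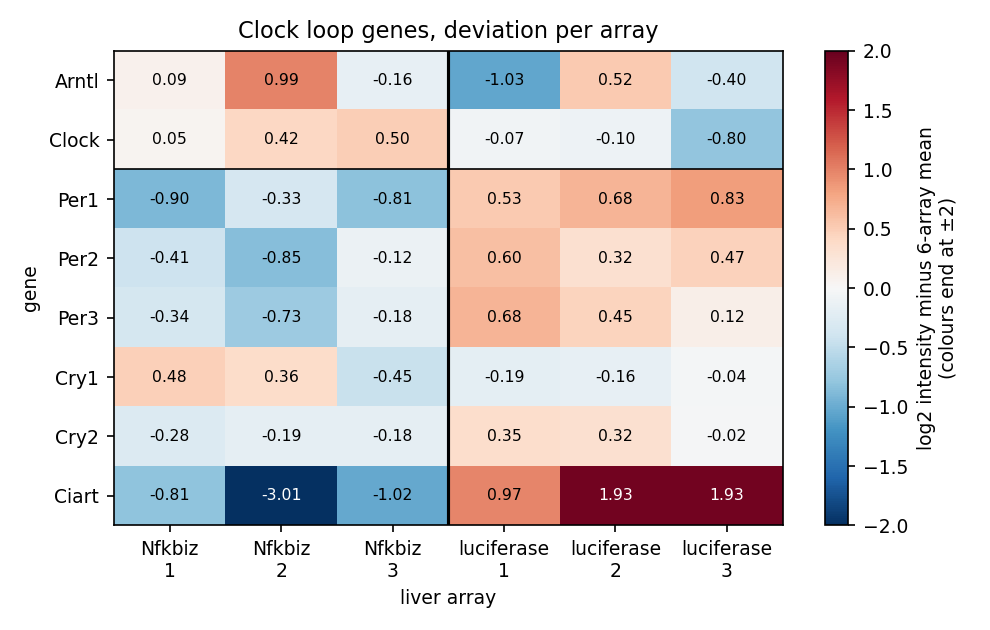
Log2 intensity of each of 8 clock loop genes on each array, minus the gene's mean over the 6 arrays, with activators above the horizontal line and repressors below it, and AAV8-Nfkbiz arrays to the left. Ciart ranges from -3.01 on the second AAV8-Nfkbiz array to 1.93 on the second and the third AAV8-luciferase arrays, and Cry1 changes sign within the AAV8-Nfkbiz group.

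The genes whose log2 intensities followed a member most closely over the 6 arrays were found among all 13312 genes, as a description in which the group difference itself contributes. They are the highest of many correlations over few arrays, so they do not show that the genes are regulated together. Per1 was followed most closely by Ascc3 (Pearson r = 0.994), Klf15 (0.993) and Mn1 (0.990). Klf15, the gene of a Kruppel-like factor active in hepatic gluconeogenesis, read 1194, 1965 and 1324 on the AAV8-Nfkbiz arrays, against 3224, 3915 and 4998 on the AAV8-luciferase arrays. Ciart was followed by Cobll1 (0.996), Asah2 (0.995) and Rlf (0.990), and Arntl by Prkar1b (0.990), Zscan21 (0.986) and Mcee (0.985). Among the tested genes with a window in the promoter table, 18 had 3 or more copies of CACGTG in 1 window, Ciart and Klf15 among them, with a median log2 difference of -0.17, and 1 of them, Klf15, passed the limma test over all genes. Of these 18, at an unadjusted p below 0.05, 3 were lower and 2 higher. The 3 lower ones include Ciart, which is above the filter only through its AAV8-luciferase arrays. They also include Klf15, which was picked here by its likeness to Per1. The median and counts were not taken without these genes, and a link between the motif and the differences was not tested. The 106 genes with 2 copies had a median of -0.03 and 0 passed, with 10 lower and 2 higher at an unadjusted p below 0.05. The 1095 genes with 1 copy had a median of -0.04 and 4 passed, with 86 lower and 58 higher at that level. The 9512 genes without the motif had a median of -0.01 and 21 passed, with 659 lower and 486 higher. Over all genes tested, 7.00% were lower and 5.03% higher at that level.

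Around the loop, other clock genes were mostly read lower as well, and 1 of them passed the test. The loop outputs are the REV-ERB, ROR, PAR-bZIP and DEC transcription factor genes, which pass the rhythm on and feed back on the loop. Of their 8 tested members 0 passed over all genes, where 0.225% passed, 7 had a negative difference, where 52.2% of all genes did, 5 of these at an unadjusted p below 0.05, where 7.00% of all genes were lower at that level, and the median was -0.56, against -0.02 over all genes. Bhlhe40, the gene of the E-box repressor DEC1, read 2012, 1674 and 2870 on the AAV8-Nfkbiz arrays, against 3777, 4829 and 3418 on the AAV8-luciferase arrays (-0.90 ± 0.20). Tef, a PAR-bZIP activator of D-box genes, read 2084, 1775 and 1903 on the AAV8-Nfkbiz arrays, against 2527, 3251 and 3019 on the AAV8-luciferase arrays (-0.61 ± 0.14). Both had limma adjusted p-values of 0.152 without overlap between the groups. Nfil3, which encodes a repressor of the D-box, was the 1 loop output with a positive difference (0.34 ± 0.14).

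Genes whose products modify clock proteins, namely kinases, a phosphatase and ubiquitin enzymes, held 1 call. Of 12 tested, Usp2, a deubiquitinase gene under clock control, fell, and 0 rose. Over all genes 0.225% passed. At an unadjusted p below 0.05, 3 were lower and 0 higher, where 7.00% of all genes were lower and 5.03% higher. Usp2 read 815, 618 and 665 on the AAV8-Nfkbiz arrays, against 2183, 2518 and 2846 on the AAV8-luciferase arrays, a difference of -1.85 ± 0.16 (limma adjusted p = 0.00276 over genes). Csnk1d, the casein kinase gene whose product phosphorylates PER, had the next smallest p-value of the list, at a difference of -0.39 ± 0.13, without passing (limma adjusted p = 0.272), on a probe set whose suffix marks probes that may match other transcripts. The median of the 12 was -0.15. Of 13 tested co-regulator genes 0 passed, and 2 were lower and 0 higher at an unadjusted p below 0.05, beside the same shares. A negative difference was found for 12, where 52.2% of all genes had one. Their median was -0.16, against -0.02 over all genes. The smallest unadjusted p-values were those of the acetyltransferase gene Crebbp (-0.41 ± 0.17) and of Timeless (-0.97 ± 0.43), and both overlapped between the groups.

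Among 13 tested genes with a clock-controlled rhythm in liver, 0 passed over all genes, and the median was -0.37, against -0.02 over all genes. Differences were negative for 8 and positive for 5, where 52.2% of all genes had a negative one. At an unadjusted p below 0.05, 5 were lower and 1 higher, where 7.00% of all genes were lower and 5.03% higher. Alas1, the first enzyme of haem synthesis, read 10881, 5921 and 11077 on the AAV8-Nfkbiz arrays, against 12029, 18535 and 18018 on the AAV8-luciferase arrays (-0.83 ± 0.25, limma adjusted p = 0.234). Cyp7a1, the rate-limiting enzyme of bile acid synthesis, differed the other way, at 8071, 8263 and 8499 on the AAV8-Nfkbiz arrays, against 1516, 2868 and 6679 on the AAV8-luciferase arrays (1.43 ± 0.40, limma adjusted p = 0.210). Its AAV8-luciferase arrays spread over a wider range than the gap between the groups, and it passed without the third of them.

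**Figure D5:**
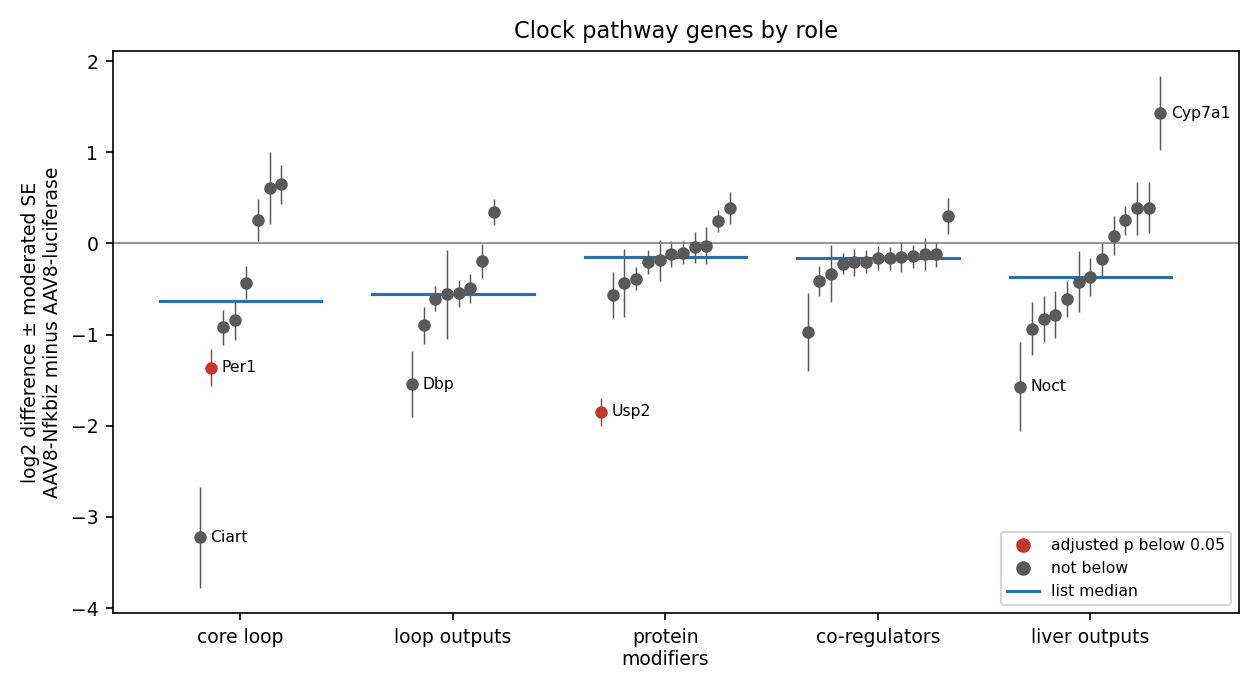
Log2 difference, AAV8-Nfkbiz minus AAV8-luciferase, of the tested genes of the core loop and of 4 lists of clock pathway genes, each with limma's moderated standard error, the list median as a line and red points for genes with an adjusted p below 0.05. Per1 and Usp2 are the 2 red points, at -1.36 and -1.85, and list medians lie between -0.64 and -0.15.

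In bulk liver RNA, fewer cells of a type and less RNA per cell cannot be told apart. Markers of Kupffer cells and macrophages were read higher in the AAV8-Nfkbiz livers. Of 11 tested, 10 had a positive difference, 9 of these at an unadjusted p below 0.05, where 5.03% of all genes were higher at that level, and 0 after adjustment, and their intensities summed to between 47647 and 61894 on the AAV8-Nfkbiz arrays, against 32302 to 44771 on the AAV8-luciferase arrays. None of the 11 was below the filter. Of 5 tested markers of T and NK cells, Gzma rose, and the sums were 813 to 1299 on the AAV8-Nfkbiz arrays and 590 to 723 on the AAV8-luciferase arrays, with Cd4 below the filter. Without Gzma the sums overlapped, at 492 to 802 on the AAV8-Nfkbiz arrays and 481 to 640 on the AAV8-luciferase arrays. Of the 4 genes in these sums, Nkg7 (0.73 ± 0.32) and Cd3g (0.39 ± 0.43) had positive differences. Cd3e (-0.67 ± 0.83) and Cd8a (-0.09 ± 0.32) had negative ones. Nkg7 had a limma unadjusted p of 0.0432 over genes. The sums of the other lists overlapped between the groups. Neutrophil markers summed to 1144 to 2702 on the AAV8-Nfkbiz arrays and 914 to 1421 on the AAV8-luciferase arrays, and B cell markers to 275 to 499 on the AAV8-Nfkbiz and 175 to 278 on the AAV8-luciferase arrays. Sinusoidal endothelial markers summed to 7206 to 9080 on the AAV8-Nfkbiz and 3938 to 8024 on the AAV8-luciferase arrays, stellate cell and fibroblast markers to 24118 to 32640 on the AAV8-Nfkbiz and 23210 to 45001 on the AAV8-luciferase arrays, and cholangiocyte markers to 307 to 422 on the AAV8-Nfkbiz and 391 to 601 on the AAV8-luciferase arrays, with Krt7 below the filter. The part of these cells in the readings of the clock genes was not tested.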

How the data were processed

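The authors' deposited table holds MAS5 signal intensity values on a linear scale, 1 array per liver sample, and MAS5 was their method per the submitters' processing notes, which name no version. Per the labels' protocols, 100 ng of total RNA per sample was converted to biotinylated cRNA. Groups and replicate numbers come from the sample titles. Precision is limited by the 3 arrays per group.

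The platform annotation gives 1 symbol to 34945, several to 932 and none to 9160 of the 45037 probe sets. The analysis used log2 intensities as deposited, without rescaling or a pseudocount. Probe sets among the lowest 40% by mean over all 6 arrays were left out. Differences, AAV8-Nfkbiz minus AAV8-luciferase, were fitted with limma 3.58.1 (lmFit and a trended eBayes prior, R 4.3.3) over 27022 probe sets and, with the brightest probe set of each gene, over 13312 genes. All tests were two-sided, and an adjusted p (Benjamini-Hochberg) below 0.05 counted as a call. The p-values and errors given beside a gene are those of the gene fit, and errors of other probe sets those of the probe set fit. Values below the filter come from a fit without it.

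The members and lists were chosen with earlier results of these data known. The genes named are the members, Nfkbiz, list genes that passed, the 2 of each list with the smallest p, and the 3 genes most correlated with Arntl, Per1 and Ciart. Klf15 and Nfil3 were also described after their values were seen. Among the list genes without a value in the tests, Ncor1, Por and Cyp2a5 had no probe set of their own here, Bhlhe41 was below the filter, and others are not reported here. Tested on 20 simulated data sets of 27022 probe sets with 200 changed ones each, the fit recovered 22.0% of log2 differences of 1 and 62.0% of those of 2, with 4.1% of calls false. Alternatives covered the filter, scaling between arrays, pseudocounts, the variance prior, array weights, a replicate block, the mean of probe sets and each array left out. Plots were made in Python 3.11.15 with matplotlib 3.10.9.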

Additional observations from a re-analysis of the deposited data

How the results depend on the processing

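With all arrays, 0 member probe sets and 1 member gene, Per1, passed. Over probe sets, 1 passed (Per1) when the lowest 60% were left out, and 2 (Per1 and Ciart) with a pseudocount of 16 or 64 or with array weights, and 0 passed when any 1 array was left out. Over genes, 0 passed without the filter, after quantile or loess scaling and without the variance trend, 2 (Per1 and Ciart) with either pseudocount or with array weights, and between 0 and 2 without 1 array, the 2 being Per1 and Ciart without the second AAV8-Nfkbiz array. After median centring the 1 gene was Ciart. Over the whole array the number of genes called ran from 0 without the variance trend to 62 with array weights, against 30, and that of probe sets from 0 to 77, against 19. The probe set medians moved by less than 0.1 on the log2 scale under each scaling.

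The replicate numbers were not treated as pairs. Deviations of same-numbered arrays correlated at -0.031, 0.073 and 0.011, and not every array correlated best with its own number. These deviations are taken within groups of 3 arrays, so they cannot settle whether the numbers pair the arrays. With the replicate block, 28 probe sets and 27 genes were called, Per1 passed over genes (limma adjusted p = 0.0492), and 1 loop output, Dbp, passed where 0 did before. The count for clock protein modifiers was 0 without the variance trend and 1 without any single array, and that for clock-controlled liver outputs was 0 to 1 without 1 array.

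Directions of the brightest probe sets of the 8 genes held in every alternative that tested them, and Ciart was not tested when the lowest 60% were left out. Dim or flat probe sets changed sign without single arrays: 1457740_at of Arntl (-0.13 to 0.23), 1439314_at of Clock (-0.52 to 0.0365), 1460662_at (-0.32 to 0.14) and 1458176_at (-0.43 to 0.75) of Per3. The cause was not tested.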
